A study of Mus musculus with 59 samples.

Results

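Slc25a1 mRNA in the mouse cortex lay on 2 separate levels, and the cortex libraries were compared by the level that each showed. The members were all 30 cortex libraries of a series of 59. Slc25a1 was taken in CPM, the usual scaling of a gene's counts by the library total. The 12 libraries under 17 CPM formed the low group, and the other 18 the high group. The measured Slc25a1 level itself therefore chose the groups and is described without a test. The animals were male mice of 4 labelled genotypes: wild type (Mrpl40 +/+, Slc25a1 +/+), Slc25a1 het (Mrpl40 +/+, Slc25a1 -/+), Mrpl40 het (Mrpl40 -/+, Slc25a1 +/+) and double het (Mrpl40 -/+, Slc25a1 -/+). The sources used here do not give age, strain or the kind of mutation, and each cortex library carries the number of a different animal. Poly(A) RNA of cortex, and of hippocampus from 29 of the same animals, was sequenced with a directional kit to compare loss of 1 copy of either gene, alone and together. The groups below are levels of Slc25a1 and not genotypes.

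Slc25a1 encodes the citrate carrier of the inner mitochondrial membrane, a member of the SLC25 family that exchanges citrate of the matrix for malate. Citrate that leaves the mitochondrion is split by ATP citrate lyase into acetyl-CoA, which feeds the synthesis of fatty acids and cholesterol. The gene lies in the region of mouse chromosome 16 that matches the human 22q11.2 microdeletion, together with Mrpl40, which encodes a large-subunit protein of the ribosome inside mitochondria. The brain makes nearly all of its cholesterol itself, largely in glia, since plasma cholesterol does not cross the blood-brain barrier.

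The low group held 5 libraries labelled Slc25a1 het, 5 labelled double het and 2 labelled wild type. The high group held 7 labelled wild type, 7 labelled Mrpl40 het, 2 labelled Slc25a1 het and 2 labelled double het. In 6 animals, then, the level went against the label: wild type 6 and 7, Slc25a1 het 3 and 4, and double het 5 and 6. Slc25a1 measured 11.7 ± 0.792 CPM (SD, n = 12) in the low group and 23.03 ± 1.556 CPM (SD, n = 18) in the high group, so that the low mean was 50.8% of the high mean. The library just inside the limit of 17 CPM lay at 12.88 CPM and the library just outside it at 20.75 CPM, with none between. Among the low libraries, the 2 labelled wild type (12.04 and 12.71 CPM) lay within the range of those labelled Slc25a1 het (10.89 to 12.88 CPM). Among the high libraries, the 2 labelled Slc25a1 het lay at 21.5 and 23.93 CPM and the 2 labelled double het at 20.75 and 21.23 CPM, against 22.81 to 26.07 CPM in wild type and 21.32 to 24.65 CPM in Mrpl40 het. The hippocampus of the same animals, whose counts did not choose the groups, held 12.1 ± 0.615 CPM (SD, n = 12) and 24.51 ± 1.625 CPM (SD, n = 17), and 29 of 29 animals lay on the same side of 17 CPM as in cortex.

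**Figure D1:**
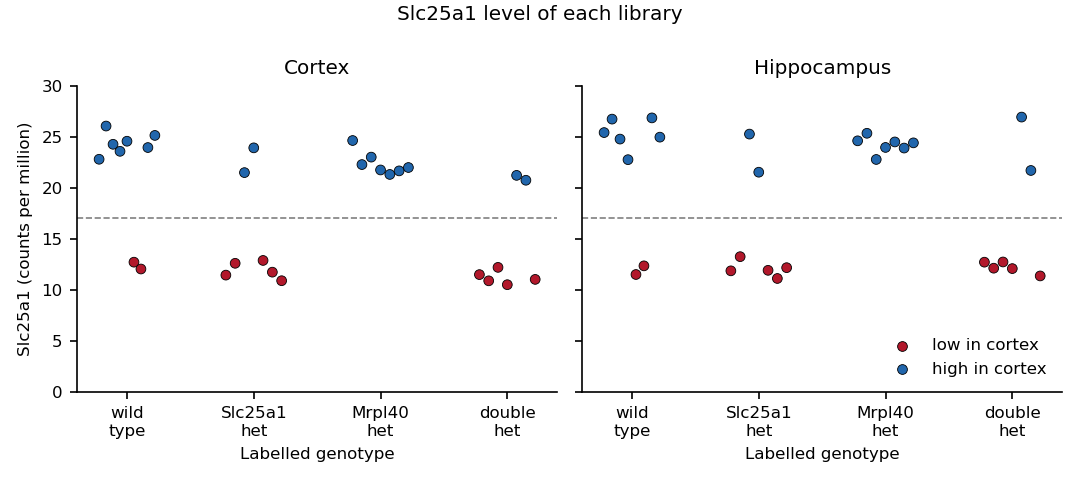
Slc25a1 in CPM (y axis) of each library by labelled genotype (x axis), in cortex (left) and hippocampus (right). Points are libraries, red where the cortex of that animal was under 17 CPM (dashed line) and blue otherwise. In both tissues the libraries lie on 2 levels with none near the line, and wild type, Slc25a1 het and double het each have animals on both.

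Mrpl40, the other labelled gene, showed no separation by its label or by the Slc25a1 level. Cortex libraries labelled Mrpl40 -/+ held 17.15 ± 1.458 CPM (SD, n = 14) and those labelled Mrpl40 +/+ 17.56 ± 1.445 CPM (SD, n = 16). By level it measured 17.48 ± 1.321 CPM (n = 12) in the low and 17.3 ± 1.549 CPM (n = 18) in the high libraries, a log2 fold change of 0.010 ± 0.045 (SE, unadjusted edgeR p = 0.82) whose sign turned in other fits. The label therefore is not checked by the Mrpl40 count, and whether the altered part of the gene is counted is unknown here.

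Total counts ranged from 22100000 to 30950000 in the low and from 21440000 to 32120000 in the high cortex libraries. Some cortex libraries stood apart in marker genes of other cells, which bears on the values below. The mean log2 CPM of 10 fibroblast and meningeal markers was highest in wild type 8 (3.60) and double het 1 (3.48) and lowest in Slc25a1 het 4 (0.77) and Mrpl40 het 2 (0.85). The last 2 also had the highest mean of 12 oligodendrocyte markers (6.97 and 6.90). Wild type 8, Slc25a1 het 4 and Mrpl40 het 2 are all high libraries, and some results are also given without these 3. They were chosen after the data were seen, and double het 1, a low library, was kept. Leaving the 3 out therefore takes libraries from the high group only and does not treat the groups alike.

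No gene that the rule did not use passed the threshold between low and high cortex libraries. With the labelled Mrpl40 genotype as covariate, 0 of 20229 other genes tested (0%) had an edgeR adjusted p under 0.05, and the smallest adjusted p was 0.367. No gene other than Slc25a1, whose separation the rule fixes, had low and high libraries that did not overlap in CPM. At an unadjusted p under 0.05 there were 1698 genes (8.39%), of which 880 were lower (4.35%) and 818 higher (4.04%) in the low libraries. DESeq2 gave 0 calls and 1706 genes at that unadjusted p. Without the 3 libraries that stand apart there were 0 calls and 1525 genes. Without wild type 1, Tmc1 passed (0.83, edgeR adjusted p = 0.0322), and with the Slc25a1 label as a further covariate Kcns1, a potassium channel subunit, did (0.30, edgeR adjusted p = 0.0379). Over all alternatives run, 0 to 2 genes passed, and the setting with 2 is described with its genes in the closing section.

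The precision was high for genes of moderate or high level. Among the 10536 genes over 10 CPM the median SE of the log2 fold change was 0.034, which makes a 95% interval of about 0.067 to either side, or 1.05-fold. Only 36 of these genes had a fitted change of more than 1.2-fold in either direction. Over all genes tested, the median log2 fold change was -0.00083 and 50.5% lay below 0. All log2 fold changes by level are low over high, so that a negative value is a lower level in the libraries with less Slc25a1. The tissue is bulk cortex, in which fewer cells of a type and less RNA per cell cannot be told apart.

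The 10 genes with the smallest p were 6 low-level transcripts that lay higher in the low libraries and 4 more abundant ones, of which 3 lay lower. All 10 have an adjusted p of 0.367 and are given as values. Ifi47, an interferon-induced GTPase, ranged from 0.485 to 1.24 CPM in the low libraries (median 1.02) and from 0.326 to 0.993 CPM in the high libraries (median 0.616). Its log2 fold change was 0.62 ± 0.14 (SE, unadjusted p = 6.95e-05), and 10 of 12 low libraries lay above the high median. H2-Eb1, a chain of the class II antigen-presenting complex, ranged from 0.860 to 1.58 CPM (median 1.16) in low and from 0.342 to 1.03 CPM (median 0.833) in high libraries, a log2 fold change of 0.60 ± 0.14. All 12 low libraries lay above the high median, although the ranges overlapped. A2m, the protease inhibitor alpha-2-macroglobulin, had medians of 0.936 and 0.573 CPM (0.72 ± 0.17), and Tmc1, a channel protein known from inner ear hair cells, 1.31 and 0.760 CPM (0.70 ± 0.17). The predicted gene Gm29856 (medians 0.427 and 0.251 CPM, 0.83 ± 0.19) and the olfactory receptor gene Olfr316 (3.04 and 2.16 CPM, 0.44 ± 0.11) completed the low-level transcripts. All of these lay at medians of 3.04 CPM or less, so few counts stand behind each value.

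Among the more abundant of the 10, Gtf2ird1, a transcription factor of the TFII-I family, ranged from 25.1 to 29.9 CPM (median 27.7) in low and from 27.1 to 36.4 CPM (median 30.4) in high libraries. All 12 low libraries lay under the high median, and the log2 fold change was -0.15 ± 0.034 (unadjusted p = 9.94e-05). Tbc1d9b, a protein with a Rab GTPase-activating domain, ranged from 217 to 273 CPM (median 239) against 231 to 291 CPM (median 268), a log2 fold change of -0.15 ± 0.037. Hipk2, a nuclear protein kinase, had medians of 22.5 and 26.3 CPM (-0.20 ± 0.049). Fut8, which adds the core fucose to N-glycans, ranged from 65.5 to 72.2 CPM (median 69.9) in low and from 60.7 to 69.1 CPM (median 64.5) in high libraries. All 12 low libraries lay above the high median of Fut8, at a log2 fold change of 0.090 ± 0.023. The ranges of the low and high libraries overlap for each of these genes.

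**Figure D2:**
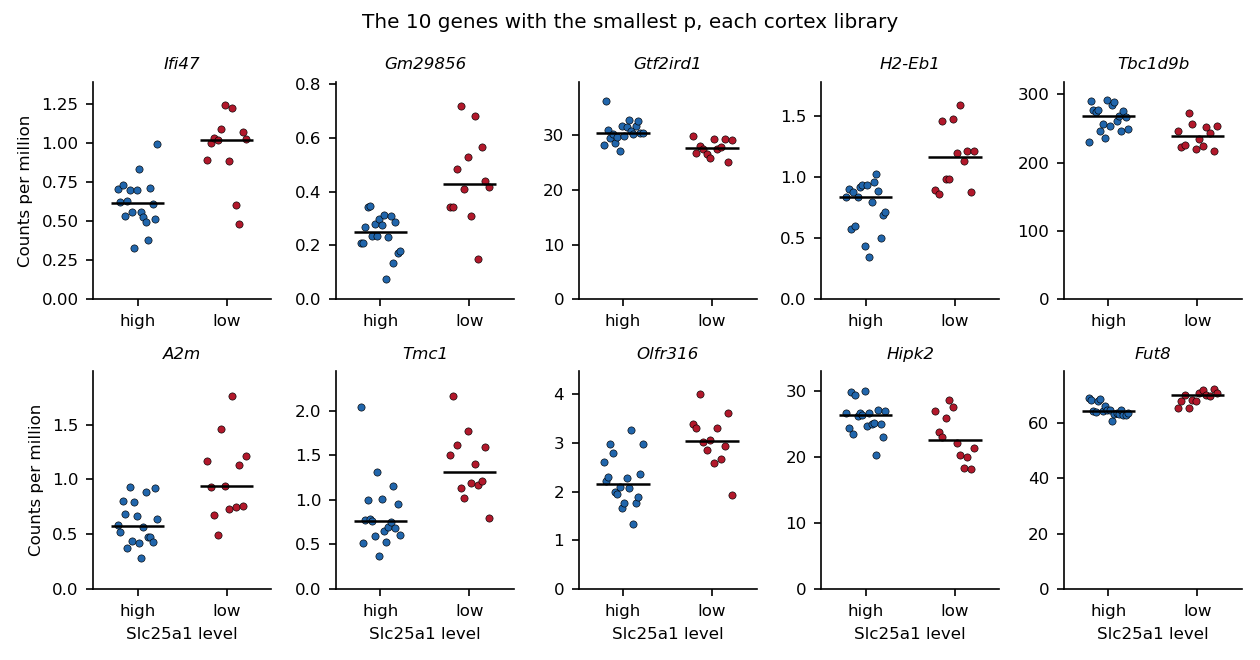
CPM of each cortex library (y axis, from 0, each panel with its own scale) for the 10 genes with the smallest p, with high Slc25a1 libraries in blue and low in red (x axis) and the group median as a bar. In every panel the medians differ while the points of the groups overlap, and none of these genes has an adjusted p under 0.367.

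Genes of cholesterol synthesis and uptake lay below in the low libraries as a group of small values. Of 25 list members, all of which were tested, 24 had a negative log2 fold change, with a median of -0.068, against 50.5% of all tested genes and a median of -0.00083. At an unadjusted p under 0.05, 8 of the 25 were lower and 0 higher, where 4.35% of all genes were lower, and 0 passed after adjustment over all genes. The list was chosen with earlier results of these data known, so its count is a description. The summed level of the list ranged from 1468 to 1733 CPM in the low libraries (median 1622) and from 1563 to 1807 CPM in the high libraries (median 1673), and these ranges overlap.

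Of these 8, the following 7 lie along the pathway from its first step on. Acat2, which joins acetyl-CoA units, had medians of 41.9 CPM in low and 43.0 CPM in high libraries (log2 fold change -0.079). Pmvk, which makes mevalonate diphosphate, ranged from 28.1 to 33.6 CPM (median 31.6) in low and from 31.9 to 37.0 CPM (median 33.3) in high libraries. It lay under the high median in 11 of 12 low libraries, at an edgeR log2 fold change of -0.094 ± 0.026 (unadjusted p 0.000771). Fdps, which builds farnesyl diphosphate, had medians of 31.2 and 33.6 CPM (-0.11). Sqle, the squalene epoxidase, had medians of 61.9 and 67.0 CPM (-0.10), and Lss, which closes the sterol rings, 36.7 and 37.2 CPM (-0.10). The late enzyme Hsd17b7 had medians of 24.3 and 25.4 CPM (-0.076), and Sc5d 73.9 and 77.2 CPM (-0.067). The low and high ranges overlap for all 7. Srebf2, the transcription factor that drives the pathway, had medians of 273 and 277 CPM, with an unadjusted p over 0.05.

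**Figure D3:**
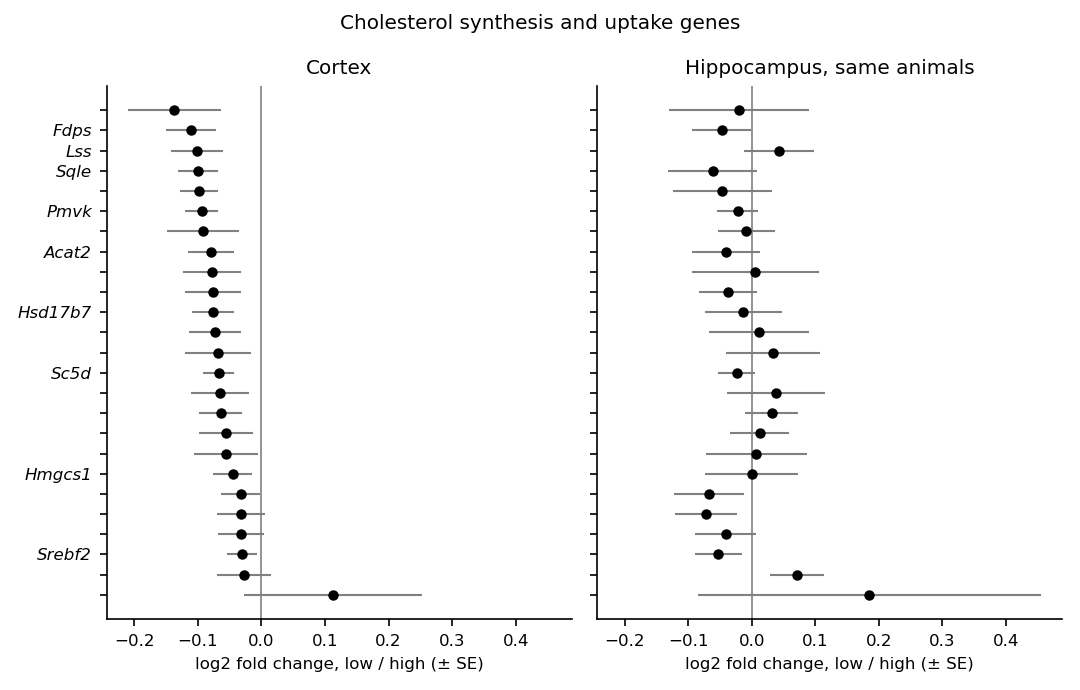
Log2 fold change of low over high Slc25a1 libraries (x axis) with its SE (lines) for the 25 cholesterol genes (y axis, those described in the text named), in cortex (left) and in hippocampus of the same animals (right). In cortex 24 of 25 points lie left of 0 and in hippocampus 14 of 25.

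The count of 24 of 25 was also found without the 6 animals whose level goes against the label, without the 3 libraries that stand apart and without each library in turn. Marker genes of other cells moved with the same grouping. With the mean of the meningeal markers as a further covariate the count was 23 and the median was -0.038. Among libraries labelled Mrpl40 +/+, 23 of 25 lay below 0 (median -0.060) and among those labelled Mrpl40 -/+ 22 of 25 (median -0.070).

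Promoter sequences are shown for Slc25a1, whose level defines the groups, and for the 1 cholesterol gene with a sterol response element of the form TCACNCCAC, the core bound by SREBP factors, where N is any base. Both strands of the 250 bases before each annotated start were searched in RefSeq sequences of build GRCm38.p6, and the match is in capitals. The Slc25a1 stretch lies at chr16:17928220-17928469 on the minus strand and has no match. The stretch of Hmgcs1, which makes HMG-CoA, lies at chr13:119690101-119690350 on the plus strand, and its match begins at -137 from the start.
Slc25a1: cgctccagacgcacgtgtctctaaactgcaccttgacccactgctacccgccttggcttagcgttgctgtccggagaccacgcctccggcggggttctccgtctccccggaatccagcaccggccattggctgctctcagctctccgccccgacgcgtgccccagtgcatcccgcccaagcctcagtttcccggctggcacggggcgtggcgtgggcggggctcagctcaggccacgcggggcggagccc
Hmgcs1: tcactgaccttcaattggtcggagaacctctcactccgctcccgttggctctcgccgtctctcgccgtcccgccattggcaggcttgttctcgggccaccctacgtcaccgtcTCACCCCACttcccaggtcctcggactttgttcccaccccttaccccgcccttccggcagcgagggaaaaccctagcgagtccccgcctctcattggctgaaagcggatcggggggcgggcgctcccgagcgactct
Of the 25 cholesterol genes 17 had a promoter in the table, and 1 of these (5.88%) held the motif, against 331 of 27025 genes (1.22%) and 156 of 12572 tested genes (1.24%). Hmgcs1 had medians of 262 and 271 CPM in low and high libraries, and its unadjusted p was not under 0.05. A match is a description of letters in this window and not of binding.

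Enzymes that use or make citrate showed small differences in either direction. Of 28 citrate cycle genes 8 lay below 0 (median 0.0066), 1 was lower and 1 higher at an unadjusted p under 0.05, and 0 passed after adjustment. Without Slc25a1 het 1, 13 lay below. Cs, the citrate synthase, measured 269 ± 5.84 CPM (SD, n = 12) in low and 268 ± 4.43 CPM (SD, n = 18) in high libraries. The 2 members with the smallest p were Me3, a mitochondrial malic enzyme, at 50.1 ± 4.00 against 56.0 ± 5.88 CPM (-0.16 ± 0.049), and Dld, the shared lipoamide dehydrogenase, at 135 ± 9.44 against 128 ± 4.85 CPM (0.073 ± 0.027).

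Downstream of the carrier, 17 of 25 genes of citrate use and fatty acid synthesis lay below 0 (median -0.014), with 1 lower at an unadjusted p under 0.05. Acly, the ATP citrate lyase, measured 164 ± 7.99 CPM in low and 166 ± 7.35 CPM in high libraries (-0.021 ± 0.025). Fasn, the fatty acid synthase, measured 292 ± 14.8 and 305 ± 14.6 CPM (-0.064 ± 0.027, unadjusted p = 0.0236), and Acaca, which commits acetyl-CoA to fatty acids, 54.1 ± 2.24 and 56.0 ± 2.41 CPM (-0.050 ± 0.025). Slc13a5, the plasma membrane citrate importer, measured 21.0 ± 2.41 and 21.1 ± 1.96 CPM.

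The 40 other tested carriers of the mitochondrial inner membrane were spread about 0, with 19 below and a median of 0.0006. At an unadjusted p under 0.05, 2 lay higher, Ucp2 (10.4 ± 1.11 against 9.46 ± 1.11 CPM) and Slc25a40 (15.2 ± 1.06 against 14.4 ± 0.971 CPM), and 1 lay lower, the aspartate and glutamate carrier Slc25a13 (1.65 ± 0.237 against 1.94 ± 0.434 CPM). The closest relatives in substrate, the dicarboxylate carrier Slc25a10 (10.2 ± 1.21 against 10.6 ± 0.785 CPM) and the oxoglutarate carrier Slc25a11 (68.2 ± 4.93 against 68.6 ± 2.78 CPM), differed in mean by less than 1 SD of either group. Their log2 fold changes were -0.057 ± 0.049 and -0.012 ± 0.030. Of 27 glycolysis and pyruvate entry genes 18 lay below 0 (median -0.013), with 1, the hexose phosphate isomerase Gpi1, lower at an unadjusted p under 0.05 (-0.065 ± 0.021).

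Nuclear genes of the respiratory chain differed by a few hundredths of a log2 unit, in a direction that depended on the libraries and covariates used. Of 36 tested complex I subunits 24 lay below 0 (median -0.018) and 2 were lower at an unadjusted p under 0.05, Ndufa8 (-0.060 ± 0.026) and Ndufv3 (-0.052 ± 0.025). Of 36 tested subunits of complexes III to V, 21 lay below 0 (median -0.013) and 6 were lower at that p, where 4.35% of all genes were, with 0 higher and 0 past adjustment. The second median ranged from -0.023 without Slc25a1 het 7 to -0.0012 without Slc25a1 het 5, and the first from -0.026 without double het 4 to -0.0087 without Slc25a1 het 1. The 6 were Cox8a and Cox6a1 of cytochrome oxidase, Uqcr11 of complex III, and Atp5d, Atp5j2 and Atp5o of the ATP synthase. Cox8a ranged from 190 to 214 CPM (median 197) in low and from 192 to 227 CPM (median 205) in high libraries (-0.068 ± 0.021), and Atp5d from 110 to 121 CPM (median 116) and from 113 to 131 CPM (median 120) (-0.069 ± 0.022). The low and high ranges overlap for both. With the meningeal mean as covariate the medians were 0.0096 for complex I and 0.027 for complexes III to V. Among Mrpl40 +/+ libraries 32 complex I subunits lay below 0, and among Mrpl40 -/+ libraries 13, a difference that was not tested as a list.

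Of 78 mitochondrial ribosome genes 45 lay below 0 (median -0.0066), with 3 lower and 3 higher at an unadjusted p under 0.05. Mrpl43 had the smallest p, with medians of 14.2 and 13.2 CPM and a log2 fold change of 0.15 ± 0.046. Copies on chromosome 1 of genes of the mitochondrial genome, lay below 0 in 5 of 7 (median -0.014), and in 0 of 7 among Mrpl40 +/+ and 6 of 7 among Mrpl40 -/+ libraries. The 37 entries of the mitochondrial genome itself hold 0 counts, and where reads from it were counted is not known here. Gm28437, a member, was at -0.030 ± 0.033, and its sign turned with the Slc25a1 label as covariate.

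Genes of the ATF4 and mitochondrial stress response, a list of ATF4-linked genes with mitochondrial chaperones and proteases, lay mostly above 0 in the low libraries. Only 3 of 27 tested members lay below 0 (median 0.056), and 2 were higher at an unadjusted p under 0.05, where 4.04% of all genes were. The summed level of the list ranged from 1248 to 1536 CPM in low (median 1424) and from 1224 to 1467 CPM in high libraries (median 1276). No library lay between 1308 CPM (wild type 8) and 1399 CPM (Slc25a1 het 3). Each group had libraries on both sides of this gap, such as Slc25a1 het 2 (low, 1248 CPM) and wild type 9 (high, 1453 CPM). More low libraries lay above the gap than below it, and more high libraries lay below it than above. The group medians thus lie on opposite sides of the gap, and a difference within either side was not tested. Slc7a11, the cystine importer, had medians of 39.2 CPM in low and 35.1 CPM in high libraries (0.19 ± 0.092), and the amino acid importer Slc7a5 64.2 and 55.3 CPM (0.14 ± 0.069). Asns, which makes asparagine, had medians of 95.5 and 78.4 CPM and Atf5, a transcription factor of the mitochondrial stress response, 21.9 and 15.5 CPM, both with an unadjusted p over 0.05. With the meningeal marker mean as covariate 5 of 27 lay below 0 and Slc7a11 was at -0.0039.

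Immediate early genes, which neurons switch on with activity, lay below 0 in 20 of 24 (median -0.081) with 0 at an unadjusted p under 0.05. They varied widely between animals: Arc, which acts at active synapses, ranged from 82.8 to 723 CPM in low and from 133 to 827 CPM in high libraries. Without Slc25a1 het 1, or without double het 4, 13 of 24 lay below. Among genes of the cytosolic ribosome 33 of 79 had a negative value (median 0.0091), and 54 of 79 when the libraries were grouped by label.

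Markers of the coverings and blood of the brain lay higher in the low libraries. All 10 fibroblast and meningeal markers were above 0 (median 0.52), and 5 were higher at an unadjusted p under 0.05, where 4.04% of all genes were. Their summed level ranged from 193 to 618.8 CPM in low libraries (median 332.1) and from 100.8 to 728.1 CPM in high libraries (median 238.1). Ptgds alone made up 86.7% of this sum, which therefore mostly gives the level of 1 gene. Col3a1, a fibrillar collagen, ranged from 0.830 to 3.48 CPM (median 1.84) and from 0.269 to 3.07 CPM (median 1.09), a log2 fold change of 0.65 ± 0.23. Ptgds, which makes prostaglandin D2 and is abundant in the leptomeninges, had medians of 290 and 208 CPM (0.52 ± 0.24). Without the 3 libraries that stand apart, 0 of 10 lay below and the median was 0.60. All 3 are high libraries. Without double het 1, the low library with the highest mean, the median was 0.39 and Col3a1 was at 0.54, and without wild type 8 they were 0.71 and 0.82. In hippocampus 6 of 10 lay below 0 (median -0.033).

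Blood cell markers lay above 0 in 6 of 6 tested (median 0.24), 4 of them at an unadjusted p under 0.05. Alas2, which starts haem synthesis in red cells, had medians of 2.76 and 2.25 CPM (0.34 ± 0.11), and their summed level ranged from 107.7 to 183.8 CPM (median 145.7) in low and from 81.14 to 160.7 CPM (median 120.3) in high libraries. All 6 tested choroid plexus markers were also above 0 (median 0.30), with only Enpp2, which oligodendrocytes also express, at an unadjusted p under 0.05. Their defining member Ttr was low in cortex, with medians of 3.08 and 2.48 CPM, and Folr1, Kcnj13, Otx2 and Slc4a5 were too low to be tested. Of 11 tested cerebellar and thalamic markers 2 lay below 0 (median 0.17), and 5 were higher at an unadjusted p under 0.05, where 4.04% of all genes were, among them Slc17a6, a vesicular glutamate transporter (37.5 and 32.7 CPM, 0.20 ± 0.067). The median of this list was 0.069 without double het 7. The part of these markers in the results for other genes was not tested beyond the covariate fits given here.

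Oligodendrocyte markers lay below 0 in 12 of 12, with a median of -0.10 and 0 at an unadjusted p under 0.05. Mbp, a major myelin protein, ranged from 732 to 1230 CPM (median 928) in low and from 671 to 1670 CPM (median 1000) in high libraries, and Mog from 18.1 to 31.6 CPM (median 23.5) and from 18.1 to 40.7 CPM (median 25.0). With the meningeal mean as covariate, or with 2 surrogate variables, only 1 of 12 lay below, so that the direction of this list turned with the fit. By labelled Mrpl40 genotype, 6 of 12 lay below among +/+ and 12 of 12 among -/+ libraries. Without the 3 libraries that stand apart 11 of 12 lay below, with a median of -0.035.

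Neuronal and other glial markers were spread on either side of 0. Cortical glutamatergic markers lay below in 6 of 11 and GABAergic interneuron markers in 8 of 12. Slc17a7, the main vesicular glutamate transporter of cortex, had medians of 1440 and 1480 CPM (-0.066 ± 0.029). Of the GABAergic markers, whose median was -0.036, 2 were lower and 1 higher at an unadjusted p under 0.05. The interneuron transcription factors Lhx6 (medians 24.6 and 26.1 CPM, -0.11 ± 0.049) and Dlx1 (16.8 and 17.9 CPM, -0.097 ± 0.047) lay lower. Lamp5, a marker of a class of interneurons and of upper layers, lay higher at 319 and 266 CPM (0.22 ± 0.078). Gfap, the filament protein of reactive astrocytes, ranged from 49.2 to 87.4 CPM (median 71.5) in low and from 37.6 to 95.4 CPM (median 50.1) in high libraries, at a log2 fold change of 0.32 ± 0.12 (unadjusted p = 0.0127). The other 11 astrocyte markers had an unadjusted p over 0.05, and 3 of the 12 in all lay below 0. Microglia (7 of 12 below, median -0.0059) and endothelial and pericyte markers (4 of 12 below, median 0.036) had 0 members at that p. Glutamatergic markers summed to at least 6194 CPM in every library, against at most 250.1 CPM for hippocampal and dentate and 327.0 CPM for striatal markers. Camk2a made up 67.2% of the glutamatergic sum. Slc17a7 had medians of 1390 CPM (low) and 1440 CPM (high) in hippocampus as well, so these sums do not measure how pure the cortex samples were.

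**Figure D4:**
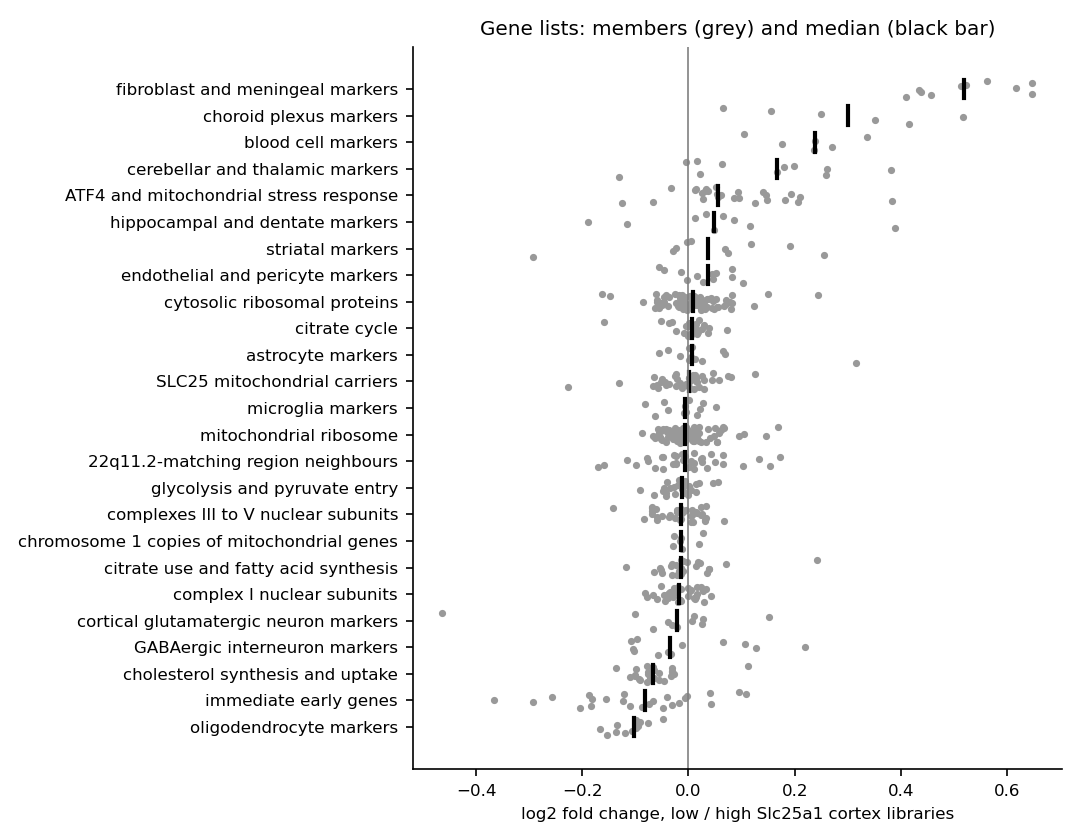
Log2 fold change of low over high Slc25a1 cortex libraries (x axis) for each tested member (grey points) of 25 gene lists (y axis), with the list median as a black bar. Meningeal, choroid plexus and blood cell markers lie to the right of 0 and oligodendrocyte markers and cholesterol genes to the left, and no member passed the test.

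Genes around Slc25a1 on chromosome 16 were spread about 0 over the whole window tested, but those close to Slc25a1 lay mostly below 0. Of 72 tested genes whose start lies within 2000000 bases of that of Slc25a1, 36 lay below 0 and 0 passed after adjustment. Within 200000 bases 7 of 12 lay below (median -0.037). These 7 form an unbroken run of tested genes around Slc25a1, from -89855 to 161984 bases. Not all of them lay below 0 in hippocampus, and the run was not tested as a set. The 2 with an unadjusted p under 0.05 were both lower and both close by. Dgcr6, starting 124641 bases to the right of Slc25a1, ranged from 33.6 to 42.9 CPM (median 38.3) in low and from 35.2 to 46.0 CPM (median 41.3) in high libraries. Its log2 fold change was -0.12 ± 0.035 (unadjusted p = 0.00177, adjusted p = 0.43), with 11 of 12 low libraries under the high median. Dgcr14, starting at -16871 bases, had medians of 28.7 and 30.8 CPM (-0.064 ± 0.030, unadjusted p = 0.039). Prodh, the proline dehydrogenase of the region, had medians of 31.7 and 32.6 CPM (-0.077 ± 0.040). Dgcr2, at -29657 bases, had medians of 68.1 and 69.7 CPM (-0.048 ± 0.024). Both were also lower, with an unadjusted p over 0.05. Mrpl40 starts 948643 bases away.

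**Figure D5:**
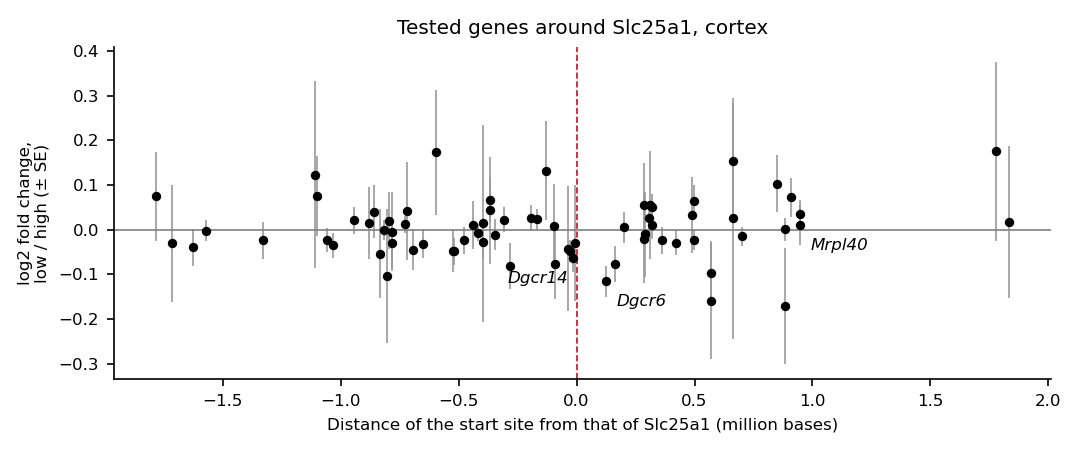
Log2 fold change of low over high Slc25a1 cortex libraries with its SE (y axis) for the 72 tested genes within 2000000 bases of Slc25a1, against the distance between the starts (x axis, in Mb, dashed line at 0). Over the whole window the points scatter about 0, while those from -89855 to 161984 bases all lie below 0. Of the 3 named genes Dgcr6 and Dgcr14 lie below 0 and Mrpl40 lies at 0.010.

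The grouping by label, which shares all 30 libraries with the grouping by level and differs from it in 6, also gave 0 calls among 20229 genes (0%). At an unadjusted p under 0.05 it gave 921 genes (4.55%), 527 lower (2.61%) and 394 higher (1.95%), and the smallest p belonged to Cracr2a, a calcium sensor, at -0.34 ± 0.069 (adjusted p = 0.359). By level Cracr2a was at -0.20 ± 0.084. Ifi47 was at 0.62 by level and 0.43 by label, Tmc1 at 0.70 and 0.27, Gtf2ird1 at -0.15 and -0.11, and Pmvk at -0.094 and -0.087. Of the cholesterol genes 24 of 25 lay below 0 by label too, in libraries that are mostly the same. Their median was -0.07 by label and -0.068 by level, and 9 and 8 were lower at an unadjusted edgeR p under 0.05. The list thus differed no more by level than by label, and which grouping it follows was not tested.

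In hippocampus of the same animals, grouped by the level of their cortex, 0 of 19983 genes passed (0%) and 850 had an unadjusted p under 0.05 (4.25%), 403 of them lower (2.02%) and 447 higher (2.24%). The leading cortex genes had the following values there, except Tmc1, which was not tested in hippocampus. Ifi47 was at 0.048 ± 0.20, H2-Eb1 at -0.15 ± 0.19, Gtf2ird1 at 0.015 ± 0.053, Hipk2 at 0.095 ± 0.079 and Fut8 at 0.027 ± 0.033. Tbc1d9b was at -0.067 ± 0.040, the same direction as in cortex. Gm29856 was at 0.10 ± 0.18, A2m at -0.16 ± 0.29 and Olfr316 at 0.06 ± 0.31. With SEs of this size the values of the low-level transcripts in hippocampus are imprecise. Whether cortex and hippocampus differ in these genes was not tested.

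For the neighbours and lists the hippocampus values were as follows. Dgcr6 was at -0.13 ± 0.055 (unadjusted p = 0.0211) and Dgcr14 at -0.10 ± 0.031 (unadjusted p = 0.00272) in hippocampus, both with the same sign as in cortex and without an adjusted p under 0.05. Of 35 listed genes of the region matching 22q11.2, 29 lay below 0 in hippocampus (median -0.027), against 18 in cortex (median -0.0067). Subunits of complexes III to V lay below 0 in 35 of 36 (median -0.057) and complex I subunits in 33 of 36 (median -0.041), where 51.0% of all hippocampus genes did, against 21 and 24 of 36 in cortex. Of these, 11 and 6 were lower at an unadjusted p under 0.05. Citrate cycle genes lay below 0 in 24 of 28 (median -0.030), against 8 in cortex, and carriers in 32 of 40. The mitochondrial ribosome had 62 of 78 below 0 and the cytosolic ribosome 58 of 79. Whether these lists differ between the tissues was not tested. Cox8a was at -0.12 ± 0.039 there. Of the cholesterol genes 14 of 25 lay below 0 there (median -0.013), and genes of the ATF4 and mitochondrial stress list lay below in 5 of 27 (median 0.034). On that list, Pycr1, which makes proline in mitochondria, had the smallest p of all hippocampus genes at 0.35 ± 0.064 (edgeR adjusted p = 0.0547, DESeq2 0.0392), against 0.062 ± 0.080 in cortex.

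Splitting the cortex by labelled Mrpl40 genotype put 7 low and 9 high libraries among Mrpl40 +/+ and 5 low and 9 high among Mrpl40 -/+. Within Mrpl40 +/+ 0 of 20229 genes passed (0%), with a smallest edgeR adjusted p of 0.659 and 1137 genes at an unadjusted p under 0.05 (5.62%, with 3.02% lower and 2.60% higher). Within Mrpl40 -/+ 2 genes passed (0.00989%), and 1390 had an unadjusted p under 0.05 (6.87%, with 3.60% lower and 3.27% higher). Of all genes tested 50.7% lay below 0 in the former and 50.1% in the latter. Ctxn3, a small membrane protein of the cortexin family, ranged from 5.46 to 6.84 CPM (median 5.80) in the 5 low and from 1.77 to 3.97 CPM (median 3.28) in the 9 high libraries. These ranges do not overlap, but how many of all tested genes have no overlap in this split of 5 against 9 was not counted. Ctxn3 rose in the low libraries by 0.91 ± 0.15 on the log2 scale (edgeR adjusted p = 0.00425). Within Mrpl40 +/+ it ranged from 3.72 to 5.77 CPM in low and from 2.50 to 5.57 CPM in high libraries (0.12 ± 0.13). The call of Ctxn3 was found without 13 of the 14 Mrpl40 -/+ libraries in turn and was lost without double het 4 (edgeR adjusted p = 0.0539, the highest of a range from 0.00238).

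Hipk2, the other gene that passed, ranged from 18.2 to 21.4 CPM (median 20.0) in the 5 low and from 20.3 to 27.2 CPM (median 25.0) in the 9 high libraries labelled Mrpl40 -/+, with an edgeR adjusted p of 0.0415 (log2 fold change -0.35 ± 0.067). The call was lost on leaving out each of 10 of the 14 libraries (edgeR adjusted p over the 14 from 0.00585 to 0.393). It was also lost with the meningeal covariate (edgeR adjusted p = 0.464) and without the 6 animals against the label (edgeR adjusted p = 0.104). Fut8 in the same split ranged from 69.8 to 72.2 CPM in low and from 60.7 to 64.9 CPM in high libraries. As with Ctxn3, the share of all tested genes without overlap in this split was not counted. The adjusted p of Fut8 was 0.0648 in edgeR and 0.00259 in DESeq2. The difference between the Mrpl40 genotypes, tested as an interaction, gave 0 calls among 20229 genes (0%) and 911 at an unadjusted p under 0.05 (4.50%, with 2.41% lower and 2.10% higher). The interaction was 0.79 ± 0.20 for Ctxn3 (edgeR adjusted p = 0.784) and -0.27 ± 0.089 for Hipk2 (edgeR adjusted p = 1), neither of which passes the threshold. The smallest interaction p was that of the predicted gene Gm45640 (-0.54 ± 0.11, edgeR adjusted p = 0.254). In hippocampus Ctxn3 by level was at 0.039 ± 0.42.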

How the data were processed

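Poly(A) RNA of 30 cortex and 29 hippocampus samples was measured, and each library was grouped by its label and by its animal's cortex Slc25a1 level. The authors deposited raw counts for each gene without normalization, and the normalized counts, a signal deposited by the authors, are these counts divided by 1 factor per library (largest relative range within a library 9.85e-10). The submitters' processing notes name FastQC, HISAT2, featureCounts and DESeq2 and the builds mm39 and GRCm39, with no roles. Counts with a blank symbol made up 1.2% of cortex counts and were kept under their gene ID. In all 59 libraries the file's genotype and animal matched the label.

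Counts were tested with edgeR 4.0.16 (R 4.3.3): filterByExpr, TMM, robust quasi-likelihood fit with the labelled Mrpl40 genotype and the level, Benjamini-Hochberg over all genes tested, threshold 0.05. SE is the fold change over the root of the F statistic. CPM in the text are counts over the column total, before TMM, and at 21440000 to 32120000 counts per library. Values given as log2 CPM, such as the marker means, were taken with a prior count of 2 added. The pipeline was tested on simulated data. The same fit was made by label, in hippocampus and with an interaction. Within each tissue the libraries came from separate animals, and the 29 hippocampus libraries came from animals that also gave a cortex library. Alternatives used DESeq2 1.42.0, sva 3.50.0 and limma 3.58.1, and are described in the closing section.

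Libraries, lists and tests were chosen with earlier results of these data known. Named genes were the 10 smallest p of the cortex comparison, the 2 smallest p of each list, the 3 smallest p of other fits and Mrpl40. The limits on expression and symbol that the rule sets for genes past the test were not applied to the 10, none having passed. Other genes, among them the list members named beyond these 2, Ctxn3, Kcns1, Isyna1, Gm47033, Wdfy1 and Ide, were chosen after their values were seen. Some list members are not reported here by name. Distances were taken from GENCODE vM21 (build GRCm38), which matched 97.3% of tested genes by ID, and are not positions in the authors' build. Promoters were from RefSeq (GRCm38.p6). Figures were drawn with matplotlib 3.10.9.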

Additional observations from a re-analysis of the deposited data

Results flagged for a closer look

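Among 344 groups of 5 to 9 libraries that share a level and a labelled Mrpl40 genotype, 18 had a library whose gap to the nearest other was large against the range of the group, where chance gives about 1 in 20. The values are log2 CPM with a prior count of 2 added, so at low levels they lie above the log2 of the CPM given elsewhere. In high libraries labelled Mrpl40 +/+, wild type 9 was highest for the complement gene C1qa (5, nearest 4.92) and the complex I subunit Ndufv3 (5.44, nearest 5.34). Wild type 2 was highest there for the mean of the cholesterol genes (5.56, nearest 5.46). Zic2 was highest in wild type 8 (3.96, nearest 3.2), the immediate early gene mean was lowest in wild type 3 (5.11, nearest 6.04), Ifi47 was lowest in Slc25a1 het 3 (-1.33, nearest -0.718) and Kl was lowest in Slc25a1 het 4 (-0.257, nearest 1.01).

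In high libraries labelled Mrpl40 -/+, Fasn was highest in Mrpl40 het 3 (8.43, nearest 8.3). Mrpl40 het 2 had the lowest Fut8 (5.93, nearest 5.98) and the highest mean of complexes III to V (6.46, nearest 6.34). In low libraries labelled Mrpl40 +/+, Slc25a1 het 1 was lowest for Gm28437 (10.1, nearest 10.3) and the astrocyte gene S100b (6.26, nearest 6.52). Mrpl40 was lowest in Slc25a1 het 2 (3.84, nearest 4.07), Ndufa8 was highest in wild type 6 (6.03, nearest 5.93), and the glutamatergic marker mean was lowest in Slc25a1 het 6 (6.72, nearest 6.94). In low libraries labelled Mrpl40 -/+, Drd1 was highest in double het 7 (3.29, nearest 2.53), the vascular gene Vtn in double het 1 (6.11, nearest 5.74) and the GABAergic marker mean in double het 4 (6.22, nearest 6.18).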

How the results depend on the processing

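The cortex count of 0 calls was also found with no filter, DESeq2 size factors, the DESeq2 test, no Mrpl40 covariate, 2 surrogate variables, a fold of at least 1.2, limma on the normalized counts, without the 6 animals against the label, without the 3 libraries that stand apart and with the meningeal mean as covariate, the last 2 chosen after seeing the data. The labels do not say that a replicate number marks a shared litter or batch. Deviations from group means correlated across 5000 genes at a median of 0.128 (-0.406 to 0.53) in 42 pairs with the same number. In 294 other pairs the median was -0.0259 (-0.611 to 0.555). The median was thus higher in same-number pairs, and whether a number marks a shared source was not tested. For want of such a label the block is given only here. With the replicate block there were 2 calls (Isyna1 0.22, adjusted p 0.0392; Gm47033 -0.68, 0.0325), with 2052 genes at an unadjusted p under 0.05, and 0 calls in hippocampus, by label and for the interaction. With the Slc25a1 label as a further covariate there was 1 (Kcns1 0.30, 0.0379). Leaving out each library gave 0 to 1 (Tmc1 0.83, adjusted p 0.0322 without wild type 1). Genes at an unadjusted p under 0.05 numbered 3074 with no filter, 1094 with surrogate variables and 123 against a fold of 1.2, and 1364 to 2032 without each library. In hippocampus no filter gave 1 call (Sox14) and 2271 such genes, DESeq2 1 call (Pycr1), and leaving out the 6 animals 1469 such genes. DESeq2 gave 1 call by label (Cracr2a) and 1 for the interaction (Gm45640). Within Mrpl40 -/+, alternatives chosen after seeing the data gave 1 call with the replicate block and 1 with the meningeal covariate, in both Ctxn3 and not Hipk2. Without the 6 animals there were 2 (Ctxn3 and Malat1), with DESeq2 6 (with Hipk2 and Fut8), and leaving out each library 0 to 5. The cause of these shifts was not tested.

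List members below 0 numbered 6 to 13 for the citrate cycle and 13 to 21 for immediate early genes without each library. The meningeal covariate gave 5 for the ATF4 and mitochondrial stress list, 1 for oligodendrocyte markers (also with surrogate variables), 7 for meningeal markers and a median of 0.044 for cerebellar and thalamic markers. The covariate is the mean of these same meningeal markers, so their count of 7 is no result. Signs turned for Mrpl40 (-0.00055 without the 6 animals, -0.0061 to 0.035 without each library, lowest without double het 4), Gm28437 (0.0078) and Dusp1 (0.13) with the Slc25a1 label, Slc7a11 (-0.0039) with the meningeal covariate, and C1ql2 (-0.10 to 0.50 without each library, lowest without double het 3). With surrogate variables and with the meningeal covariate they turned for Mbp (0.15, 0.11), Mog (0.16, 0.12) and Neurod1 (-0.049, -0.042). At the depth of these libraries, genes under 1 CPM rest on few counts.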

Other observations

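Wdfy1 and Ide, chosen after their values were seen, also lay on 2 levels in cortex that crossed the Slc25a1 groups. Wdfy1, an endosomal protein that binds phosphoinositides, lay between 24.4 and 30.2 CPM in 20 cortex libraries and between 38.6 and 45.6 CPM in the other 10. Of the low Slc25a1 libraries 10 were on its lower level and 2 on its upper, and of the high Slc25a1 libraries 10 and 8. In hippocampus the levels were 21.9 to 29.1 CPM and 36.7 to 41.4 CPM, and 29 of 29 animals were on the same side in both tissues. The log2 fold change of Wdfy1 by Slc25a1 level was -0.18 (unadjusted p = 0.163).

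Ide, the insulin-degrading enzyme, lay between 43.2 and 53.4 CPM in 13 cortex libraries and between 70.8 and 81.3 CPM in 17. Its lower level held 6 of the 12 low and 7 of the 18 high Slc25a1 libraries, and of the labelled genotypes 6 wild type, 3 Mrpl40 het, 2 Slc25a1 het and 2 double het animals. In hippocampus the levels were 43.7 to 54.1 CPM and 71.3 to 81.0 CPM, again with 29 of 29 animals on the same side. By Slc25a1 level the log2 fold change of Ide was -0.089 (unadjusted p = 0.471).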
